A study of Brassica oleracea with 15 samples.

Results

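The lit flank of seedlings bending towards blue light was compared with the top flank of seedlings bending against gravity, the flank that elongates less in each of the 2 responses. The members were chosen by sample title, with no measured value entering the choice: 3 lit and 3 top flank arrays of 15 arrays in the series. Of 22810 probe sets in the deposited table, 11371 were bright enough to be tested (mean log2 signal over all arrays at or above the median of the table), and 6284 of these carried 1 gene symbol.

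Etiolated wild type seedlings of Brassica oleracea, 3 days old, were used throughout. The lit flank and, opposite it, the shaded flank came from seedlings lit from one side with blue light for 2 h. The top and the bottom flank came from seedlings given 2 h of gravity stimulation in place of light, and control flanks came from mock-stimulated seedlings kept in darkness. Each group had 3 arrays, each from a pool of about 100 seedlings, and each flank section was about 1 cm long and held outer tissue of the hypocotyl, the seedling stem below the cotyledons, without its vasculature. The design text calls the pools biological samples, so p-values measure the spread between pools. The protocol text attached to the lit samples names the shaded flank as the tissue collected, whereas their titles say lit. That of bottom flank replicates 1 and 2 names top and shaded flanks, which touches the comparison of shaded with bottom flank, and titles were followed throughout. In these arrays WES1 (GH3.5), an auxin-conjugating enzyme gene that auxin induces, had signals of 1601, 1392 and 1195 in the 3 lit flanks, all below the 2507, 2721 and 1987 of the 3 shaded flanks. The mean log2 signal of the 4 tested auxin response genes, WES1 among them, overlapped between these flanks. It was 9.726, 9.724 and 9.318 in the lit and 9.945, 10.42 and 9.626 in the shaded flanks. Whether the titles name the flanks rightly was not tested.

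Phototropism begins when phototropins absorb blue light on the side facing the lamp, and gravitropism when starch-filled plastids settle in the endodermis. Both lead to a sideways shift of auxin, after which the side with less auxin elongates less. Blue light also starts greening: nuclear genes for photosynthesis are switched on while etioplasts turn into chloroplasts, whose own small genome encodes core subunits of the photosystems and part of the plastid ribosome. The lit and the top flank therefore stand on the same side of the bend but differ in the stimulus, in light exposure and in orientation. Because each stimulus was given to its own seedlings and the labels give no dates, batches of seedlings or arrays and the stimulus cannot be told apart.

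Every pair of top arrays correlated better than any pair of a lit with a top array, while pairs of lit arrays overlapped those. Pairs of arrays correlated in log2 signal with a median r of 0.826 within the lit flanks, 0.841 within the top flanks and 0.823 between lit and top (9 pairs). The ranges were 0.824 to 0.8562 within lit, 0.8405 to 0.8604 within top and 0.7965 to 0.8353 between them. For control transcripts probed at both ends, the log2 signal at the 3 prime end less that at the 5 prime end, which tracks RNA length, was -0.34 ± 0.14 in the lit and -0.21 ± 0.12 in the top flank (SD, n = 3 each; two-sided exact permutation p = 0.3, where 0.1 is the smallest possible). Of the fixed tissue markers, only 1 vascular and 2 epidermal ones were matched by symbol. These were too dim to be tested, so the labelled tissue could not be checked with them. The endodermal gene JKD had signals of 557, 407 and 182 in the lit and 588, 513 and 787 in the top flank, a log2 difference of -0.84 that did not pass (limma adjusted p = 0.79), and the seed storage gene OLEO3 one of 0.20.

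The lit and the top flank differed at few probe sets. Of the 11371 tested, 10 passed an adjusted p of 0.05 (0.0879%), with 4 higher in the lit flank (0.0352%) and 6 lower (0.0528%). By size of difference, the plastid ribosomal protein gene rpl14 led those that were higher. A terpene synthase gene, AT3G25810, and an aminoacyl-tRNA synthetase gene, AT4G26870, led those that were lower. The size for AT3G25810 is uncertain, since its lit signals were dim. A linear model with 5 group means over the 15 arrays was used (limma, Benjamini-Hochberg adjustment over all tested probe sets). All differences below are log2 lit minus top from that fit, and signals of different genes are not set against each other, since Brassica RNA matches these Arabidopsis probes unequally. In pooled tissue, a lower signal through fewer cells of a type cannot be told from less RNA per cell. With quantile normalization 21 probe sets passed, 12 higher and 9 lower. At an unadjusted p under 0.05 there were 1121 (9.86%), 526 higher (4.63%) and 595 lower (5.23%). The median difference over all tested probe sets was -0.002, and the median 95% interval reached 0.61 to either side of the estimate, which limits what 3 arrays a side can show.

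**Figure D1:**
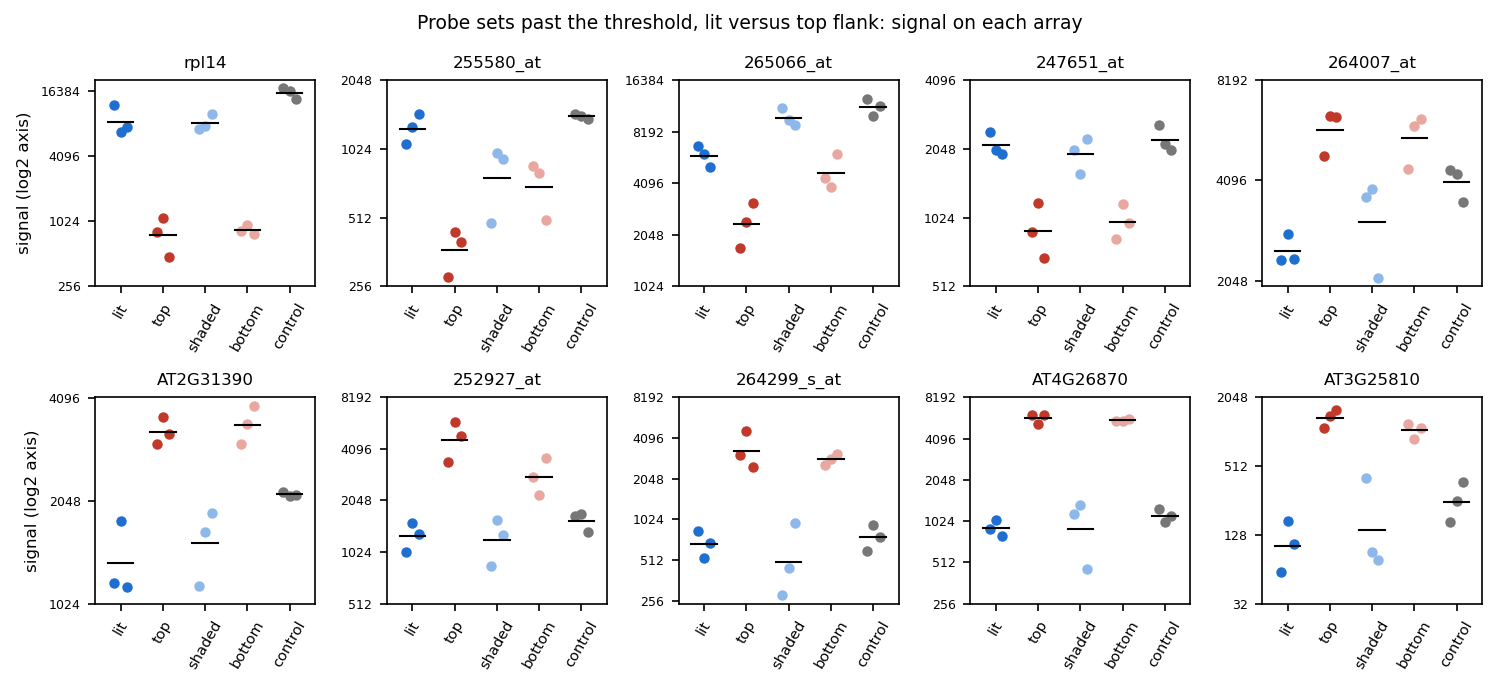
Signal (log2 axis) of the 10 probe sets past the threshold on each array; points are arrays, lines the mean of log2 signal of 3 arrays, columns the lit, top, shaded, bottom and control groups, and panels are titled by gene symbol or, where none was used, by probe set. In every panel the 3 lit arrays lie apart from the 3 top arrays, and the 3 top arrays lie outside the range of the 3 control arrays.

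The gene rpl14 encodes a protein of the large subunit of the plastid ribosome. Its signal was 12193, 6891 and 7647 in the lit flanks and 822, 1112 and 477.7 in the top flanks. Every lit array thus lay above every top array, and the difference was 3.51 (SE 0.26, 95% interval 2.96 to 4.06), or 11.4-fold (limma adjusted p = 2.89e-06, n = 3 each). The control arrays, at 17471, 16427 and 13864, lay above both flanks. The other plastid ribosomal gene with a small p, rpl16, is its neighbour in the plastid genome. It had 5294, 3732 and 4998 in the lit flanks and 2516, 2485 and 1661 in the top flanks, without overlap, a difference of 1.08 (SE 0.20) that fell just short of the threshold (adjusted p = 0.0504), and 6633, 7301 and 8227 in the control. With quantile normalization, with only the brightest 30% of probe sets, with 16 added to the signal and with array weights, rpl16 passed. Genes next to these in the same plastid operon, named after their values were seen, did not share the pattern: rps3 differed by -0.66, rpl22 by -0.19 and rps19 by 0.03, and none passed.

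AT4G26870 belongs to the class II aminoacyl-tRNA synthetases, enzymes that load amino acids onto tRNA. Its signal was 897, 1039.5 and 799 in the lit flanks and 6116, 5262 and 6091 in the top flanks. The groups were far apart, and the signal was 6.41-fold lower in the lit flank (difference -2.68, SE 0.28, adjusted p = 0.000205). The control arrays, with 1259, 1004 and 1122, overlapped the lit flanks and lay below the top flanks.

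AT3G25810 encodes a terpene synthase, of the enzyme family that makes volatile terpenes. It was dim in the lit flanks, at 60, 169.8 and 106, against 1092, 1416 and 1587 in the top flanks. It was lower in the lit flank (difference -3.72, SE 0.55, adjusted p = 0.0106), and the control, at 164, 254 and 368, overlapped the lit but not the top flanks. All 3 lit signals lay below the level set for the mean over arrays (8.28 on the log2 scale). The probe set reached that level, with a mean of 8.45, through its top and bottom arrays, so the size of its difference is uncertain and no fold is given. Without top flank replicate 2 it did not pass (adjusted p = 0.0743).

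AT2G31390 encodes a fructokinase-like sugar kinase, of the enzymes that phosphorylate fructose on its way into metabolism. Its signal was 1179.8, 1791 and 1149 in the lit flanks and 3002, 3607 and 3210.1 in the top flanks, 2.43-fold lower in the lit flank (difference -1.28, SE 0.20, adjusted p = 0.0144). The control, at 2182, 2118 and 2132, lay between the flanks and overlapped neither. It did not pass without lit flank replicate 1 or 3 or top flank replicate 2 (adjusted p = 0.0796, 0.0622 and 0.0746), with only the 6 lit and top arrays (0.077) or without the intensity trend (0.0727).

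The other 6 probe sets have no single gene name here. The probe set 255580_at had 1070, 1273 and 1455 in the lit flanks and 281, 442 and 402 in the top flanks (difference 1.77, SE 0.28, adjusted p = 0.0144), while the control, at 1455, 1425 and 1378, overlapped the lit flanks. Smaller differences above 0 were 1.32 for 265066_at (adjusted p = 0.0144) and 1.25 for 247651_at (0.0288). Below 0 were 264299_s_at, a probe set with several symbols, at -2.29 (0.0106), 252927_at at -1.87 (0.00525) and 264007_at at -1.21 (0.0399). Only 252927_at of these 6 passed without any 1 of the 6 arrays. The call was lost without 3 of the 6 arrays for 255580_at (adjusted p up to 0.072), 4 for 265066_at (0.0912), 5 for 247651_at (0.12), 5 for 264007_at (0.13) and 2 for 264299_s_at (0.0746).

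Beside the unstimulated control, these 10 probe sets stood apart more often in the top than in the lit flank. In 10 of 10 the 3 top arrays lay outside the range of the 3 control arrays, 6 above and 4 below, where 18% of all tested probe sets did in either direction. The lit arrays lay outside it in 4 of 10, all below, and overlapped it in 6, where 17% of all tested probe sets lay outside and 9.08% below. The probe sets were chosen with the same top and lit arrays, so this describes them and is no test.

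Of the named genes with higher estimates that did not pass, the 5 with the smallest p were led by rpl16. AT3G23940, dihydroxy-acid dehydratase of branched-chain amino acid synthesis, had 2163, 1901 and 2327 in the lit flanks and 996.5, 639 and 1044 in the top flanks, a difference of 1.28 (adjusted p = 0.0806). AT3G44190 and AT5G20110 both differed by 1.61 (adjusted p = 0.0626 and 0.0872), with lit arrays overlapping the control and top arrays below it. The carbon fixation gene SBPASE is given below. Among the genes with lower estimates, RPN12a, a subunit of the 26S proteasome lid, had 2199, 2137 and 2343 in the lit flanks and 3791, 3202 and 4300.2 in the top flanks, a small difference of -0.75 with little spread (SE 0.15, adjusted p = 0.0872). AT5G53150 differed by -1.74 (0.0934), and cox2, petL and psaI of the organelles are given with their groups. None of the 10 overlapped between the lit and the top arrays, which was so for 15.4% of all tested probe sets, and their small p chose them.

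The nuclear genes of the carbon fixation list all had higher estimates in the lit flank. The list also holds AT5G58330, a malate dehydrogenase gene, and TPI, a symbol of a cytosolic enzyme, so its counts cover more than carbon fixation. All 5 tested had an estimate above 0, against 49.7% of all tested probe sets, with a median difference of 0.92, and 5 of 5 had an unadjusted p under 0.05, against 4.63% of all in that direction. None passed after adjustment over all probe sets. In each of the 5 every lit array lay above every top array, which held for 7.6% of all tested probe sets. This list, like the others, was chosen with earlier results of these data known, so these counts describe it and are no test. SBPASE, sedoheptulose bisphosphatase of the Calvin cycle, had 3248, 3252 and 3037 in the lit flanks, against 1716, 929 and 1023 in the top flanks, a difference of 1.43 (SE 0.29, adjusted p = 0.0872). RCA, which activates Rubisco, had 2545, 2133 and 1943 in the lit flanks and 1455, 877.5 and 1073 in the top flanks, a difference of 0.98 (SE 0.23, adjusted p = 0.112). PRK, phosphoribulokinase, which makes the acceptor of CO2, differed by 0.92 (SE 0.26) and AT5G58330, an NADP-dependent malate dehydrogenase gene, by 0.69 (SE 0.18). TPI, triose phosphate isomerase, a symbol borne by a cytosolic form, differed by 0.49 (SE 0.17). In 4 of these 5 genes, all but TPI, the lit arrays lay above every control array, which held for 7.92% of all tested probe sets, and the top arrays overlapped the control. SBPASE passed under quantile normalization and without top flank replicate 1, the top array with its highest signal. Leaving out any 1 of the 6 arrays left all 5 estimates above 0, with medians between 0.81 and 1.04.

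Genes for light harvesting and the thylakoid that lie in the nucleus had smaller estimates, most of them above 0. Of 10 tested, 9 had estimates above 0, with a median of 0.48, 3 had an unadjusted p under 0.05 on the higher side and 0 passed, where 49.7% of all tested probe sets lay above 0 and 4.63% had such a p. The 3 were HCF101, which supplies iron-sulphur clusters to photosystem I, ATPC1, the gamma subunit of the chloroplast ATP synthase, and PSB27, a photosystem II assembly factor. HCF101 had 882, 927 and 1216 in the lit flanks and 505, 447 and 552 in the top flanks, without overlap, a difference of 1.00 (SE 0.21, adjusted p = 0.0934). ATPC1 differed by 0.92 (adjusted p = 0.352) and PSB27 by 0.47 (0.504). The median without top flank replicate 1 was 0.74, and over the other arrays left out it lay between 0.35 and 0.54. Of 7 tested chlorophyll synthesis genes, 4 had estimates above 0 and 3 below, with a median of 0.15 and none at an unadjusted p under 0.05. HEME2, uroporphyrinogen decarboxylase, had the highest estimate, 0.65. Of the flavonoid genes, whose products include the red pigments of the hypocotyl, 2 of 3 tested lay above 0 (median 0.19), the highest being UGT78D2, a flavonoid glucosyltransferase, at 0.66.

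**Figure D2:**
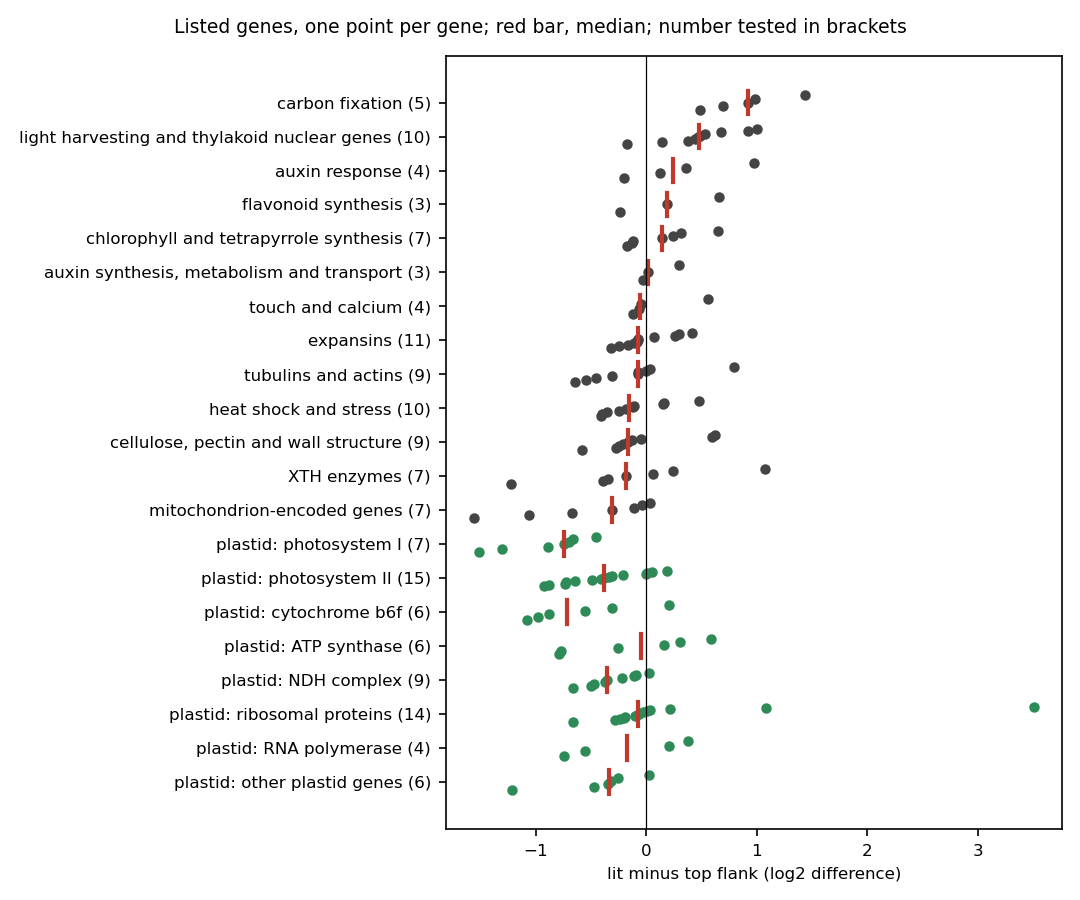
Difference between lit and top flank (log2) for the members of each list with at least 3 tested genes; each point is a gene, the red bar is the median, numbers in brackets count the genes, and green marks genes of the plastid genome split by complex. The 5 genes of the carbon fixation list lie above 0, the 7 photosystem I genes of the plastid genome lie below 0, and rpl14 stands apart at 3.51.

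The genes of the plastid genome leaned the other way, rpl14 and rpl16 apart. Of 67 tested, 16 had estimates above 0 and 51 below, with a median of -0.32, and 18 had an unadjusted p under 0.05 on the lower side, against 5.23% of all tested probe sets. In 17 every lit array lay below every top array, against 7.81% of all. Only rpl14 passed after adjustment. The mean log2 signal of the 67 genes was 12.11, 11.29 and 11.9 in lit flank replicates 1, 2 and 3, against 12.22, 12.29 and 11.67 in top flank replicates 1, 2 and 3, so the groups overlapped. In the control it was 12.16, 12.23 and 12.16. Lit flank replicate 2 was the lowest lit array in 51 of the 67 genes, and top flank replicate 3 the lowest top array in 57. Without lit flank replicate 2 the split was 26 above and 41 below, with a median of -0.06, and without top flank replicate 3 it was 7 above and 60 below, with a median of -0.50. Without lit flank replicate 1 it was 10 above and 57 below, with a median of -0.53. The size of the list's median thus depended on single arrays, and it was near 0 without lit flank replicate 2.

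Within the plastid genome the median differed between complexes, a grouping made after the values were seen and not tested. All 7 genes of photosystem I and its assembly had estimates below 0 (median -0.74), and did so on leaving out any 1 of the 6 arrays (medians -0.99 to -0.48, the last without lit flank replicate 2). Of the cytochrome b6f genes 5 of 6 lay below 0 (median -0.72), of photosystem II 12 of 15 (-0.38) and of the NDH complex, which returns electrons to the plastoquinone pool, 8 of 9 (-0.36). Without lit flank replicate 2 the medians of these 3 were -0.31, -0.15 and -0.06, and over the other arrays left out they lay between -1.09 and -0.61, between -0.58 and -0.34, and between -0.42 and -0.24. The ATP synthase genes split 3 and 3 (-0.05), the ribosomal protein genes had 5 above and 9 below (-0.08) and the RNA polymerase genes split 2 and 2 (-0.17). Of the remaining 6 genes 5 lay below 0 (-0.33). The medians of these last 4 groups were above 0 without lit flank replicate 2. The large subunit gene of Rubisco, rbcL, differed by 0.02 while the nuclear genes of the carbon fixation list lay above 0.

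Among the genes of smallest p in that genome, psaI, a small subunit of photosystem I, had 3989, 1983 and 4479 in the lit flanks and 7516, 10231 and 6881 in the top flanks. The groups did not overlap, and the difference was -1.30 (SE 0.28, adjusted p = 0.0985), with the control at 8479, 8931 and 8336, above the lit and overlapping the top flanks. The cytochrome b6f subunit petL had 1709, 1279 and 1709 in the lit flanks and 2994, 4162 and 2828 in the top flanks, a difference of -1.08 (SE 0.23, adjusted p = 0.0912). The neighbours of psaI in one operon were looked up after its value was seen. They are accD, a subunit of the acetyl-CoA carboxylase of fatty acid synthesis, at -1.21, ycf4, a photosystem I assembly factor, at -1.51, cemA, an envelope protein, at -0.47, and petA, cytochrome f, at -0.98. All 5 thus had estimates below 0, as did 51 of the 67 tested genes of the plastid genome, and none passed.

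Of 7 tested mitochondrial genes 6 had estimates below 0, with a median of -0.31. It was -0.07 without top flank replicate 2, -0.81 without top flank replicate 3 and -0.20 without lit flank replicate 3. The lowest was cox2, subunit 2 of cytochrome c oxidase, with 251, 549 and 873 in the lit flanks and 1431, 1356 and 1589.8 in the top flanks, a difference of -1.56 (SE 0.33, adjusted p = 0.0912). For cox2 the lit arrays overlapped the control, at 626, 682 and 863, and the top arrays lay above it. The call of cox2 was made without lit flank replicate 3. Its partner cox1 had 1599.6, 1403 and 1775 in the lit flanks and 3408, 4221 and 2516 in the top flanks, a difference of -1.06 (adjusted p = 0.132), and nad5, of complex I, differed by -0.67.

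**Figure D3:**
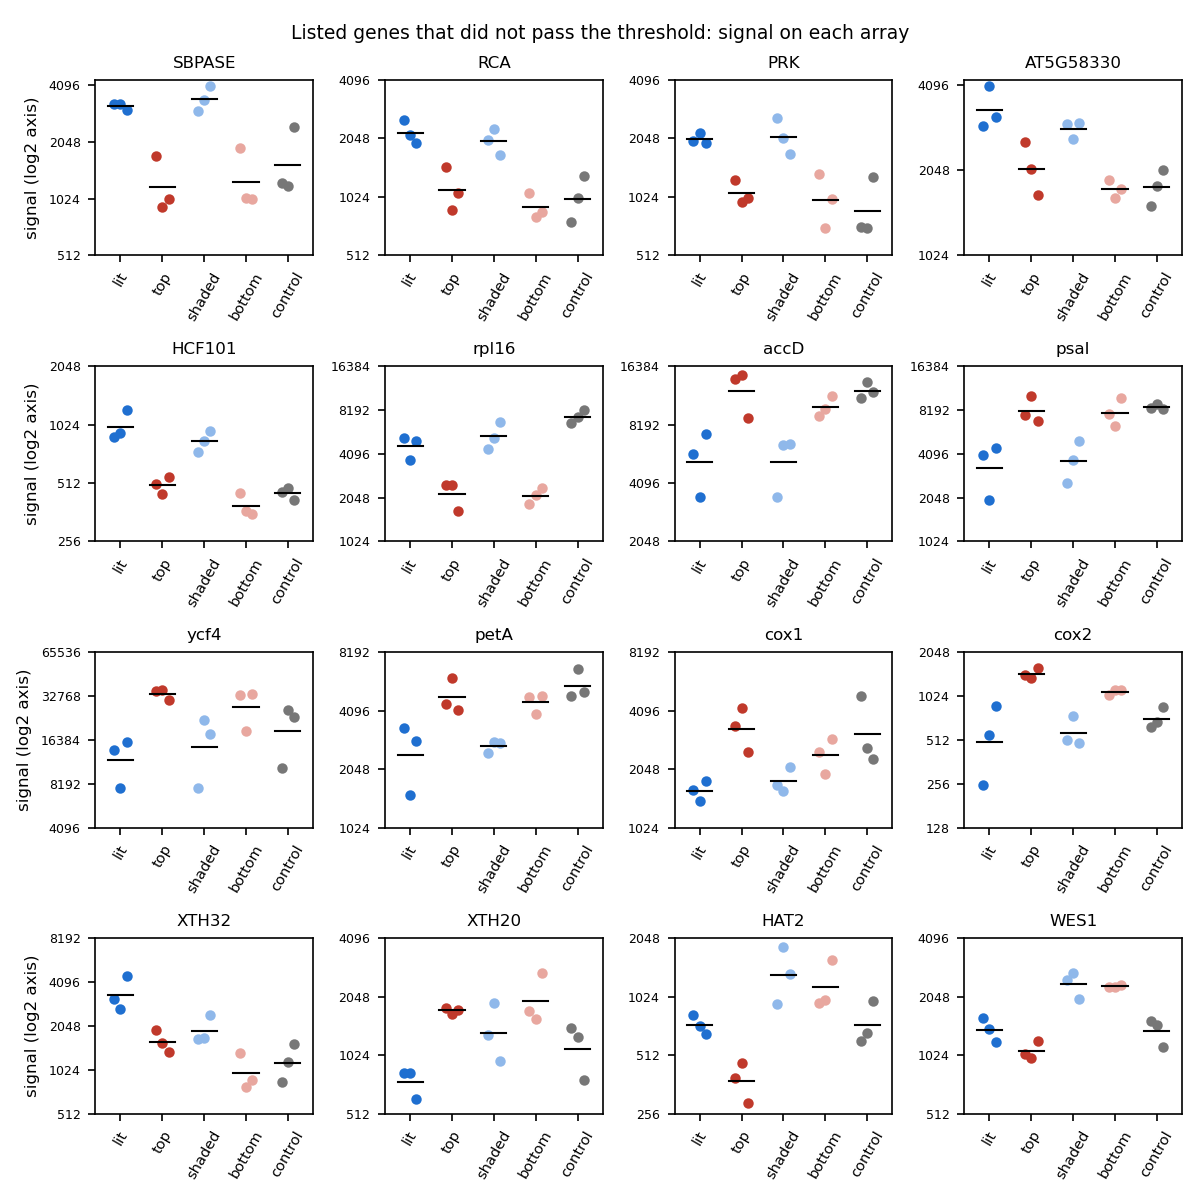
Signal (log2 axis) on each array of 16 listed genes that did not pass the threshold, chosen after their values were seen; points are arrays, lines the mean of log2 signal of 3 arrays, and columns the lit, top, shaded, bottom and control groups. SBPASE, RCA, PRK, AT5G58330 and HCF101 have lit arrays above top and control arrays, and psaI, accD and petA have lit arrays below both.

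No tested gene of auxin response or cell wall growth passed between these flanks. Of 4 tested auxin response genes, out of 15 matched, 3 had estimates above 0 and none passed. HAT2, an auxin-induced homeodomain gene, had 829, 727 and 661 in the lit flanks and 389, 466 and 291 in the top flanks, without overlap (difference 0.97, SE 0.28, adjusted p = 0.222). The top flanks also lay below the control arrays of HAT2, at 609, 664 and 972, which the lit flanks overlapped. WES1, with 1035.5, 993 and 1214 in the top flanks, overlapped the lit flanks (difference 0.36, SE 0.18, adjusted p = 0.522), and LBD16 differed by 0.12. The auxin synthesis and transport genes WAG2, YUC2 and YUC4 differed by 0.30, 0.02 and -0.03.

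Expansins, proteins that loosen the cell wall, gave 4 estimates above 0 and 7 below among 11 tested, all between -0.32 and 0.41, with a median of -0.07, just above 0 without top flank replicate 2 or 3, and none at an unadjusted p under 0.05. The XTH enzymes, which cut and rejoin xyloglucan chains of the wall, had 3 estimates above 0 and 4 below, and the 2 with the smallest p lay on opposite sides. XTH20 had 828, 828 and 611 in the lit flanks and 1803, 1677 and 1753 in the top flanks, without overlap (difference -1.22, SE 0.28, adjusted p = 0.112), and the top flanks lay above the control. XTH32 had 3123.5, 2678 and 4528 in the lit flanks and 1919.6, 1555 and 1361 in the top flanks, also without overlap (difference 1.07, SE 0.26, adjusted p = 0.132), and the lit flanks lay above the control. Of 9 tested genes of cellulose, pectin and wall structure 7 lay below 0 (median -0.16). CSLC12, of the glucan synthases that make the xyloglucan backbone, had the highest estimate among those of smallest p, 0.62. Of 9 tubulin, actin and related genes 7 lay below 0 (median -0.08), with the beta-tubulins TUB7 and TUB6 at -0.54 and -0.64 and SPR1, a microtubule-associated protein, at 0.80. No member of these 4 lists passed.

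The remaining lists held few tested genes and no calls. AFR, an F-box gene of far-red light signalling, had 934, 990.2 and 940.2 in the lit flanks and 2135, 2249 and 1705 in the top flanks, without overlap (difference -1.08, SE 0.30, adjusted p = 0.217). FHL, of phytochrome A import, differed by 0.12 and the clock gene GI by 0.07. The starch branching enzyme gene SBE2.2 differed by 1.03 with overlapping arrays. Of 4 touch and calcium genes 1 lay above 0, of 10 heat shock and stress genes 3 (median -0.15), and of the gibberellin genes (GID1C and SPY) and the ethylene genes (EIN3 and RTE1) 0 of 2 each. The 2 brassinosteroid genes matched by symbol were too dim to be tested, and no cytosolic ribosomal protein gene was matched by symbol.

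The same contrast of stimuli was also made in the opposite, faster elongating flanks. Its group means come from other arrays, but the estimate of spread is shared, so its calls are not independent of those above. As batches and stimulus cannot be told apart, it shows only which differences recur in shaded against bottom flank. There 33 probe sets passed (0.29%), 17 higher in the shaded flank (0.15%) and 16 lower (0.141%; limma, same fit), and 1238 had an unadjusted p under 0.05 (10.9%). They included 6 of the 10 called between lit and top flank, which is 60% of the 10 and 18.2% of the 33, all in the same direction. Among these 6 is AT3G25810, which was bright enough to be tested only through its top and bottom arrays. The sign was shared by 10 of the 10, by 32 of the 33, and by 62% of all tested probe sets. Set against each other over the 11371 probe sets, both differences correlated with r = 0.368 (Pearson) and rho = 0.333 (Spearman), a description only, since the flank pairs share the stimulus and may share seedlings.

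**Figure D4:**
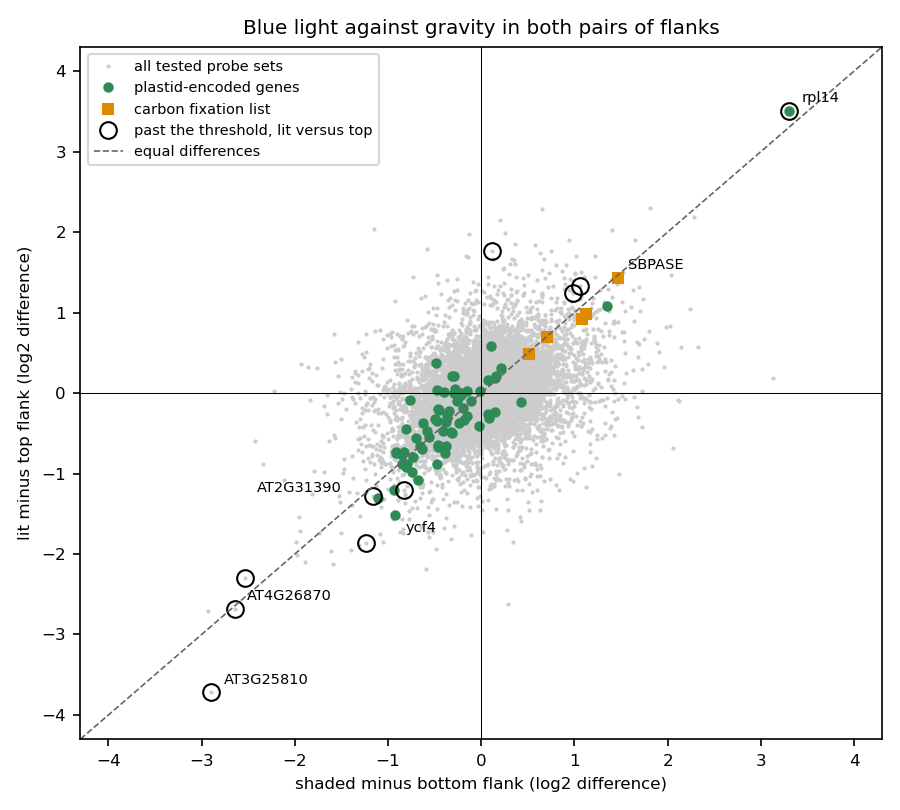
Difference between lit and top flank (vertical, log2) against the difference between shaded and bottom flank (horizontal, log2); each grey point is a tested probe set, green points are genes of the plastid genome, orange squares the carbon fixation list, rings the 10 probe sets past the threshold between lit and top flank, and the dashed line marks equal differences. rpl14, AT4G26870 and SBPASE lie near the dashed line, and the ring near 0 on the horizontal axis is 255580_at.

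In the shaded against the bottom flank, rpl14 had 7419.6, 7813 and 10168 against 826.5, 946 and 783.5, a difference of 3.30 (adjusted p = 7.16e-06). AT4G26870 had 1150.2, 1337 and 459 in the shaded and 5536, 5465 and 5728 in the bottom flanks, a difference of -2.65 (adjusted p = 0.000163). AT3G25810 and AT2G31390 differed there by -2.90 and -1.16 (adjusted p = 0.0354 and 0.0201). The shaded signals of AT3G25810 were dim too, at 406, 91.5 and 76.6, against 1206, 887 and 1104 in the bottom flanks. Its probe set was bright enough to be tested only through its top and bottom arrays. The size of its difference is therefore uncertain here as well, and its call here is no separate support. For rpl14, AT4G26870, AT3G25810 and AT2G31390 the difference between the flank pairs was 0.20, -0.03, -0.82 and -0.12 on the log2 scale. The 95% intervals were -0.57 to 0.98, -0.87 to 0.80, -2.47 to 0.83 and -0.72 to 0.48. A flank dependence of a size within those intervals was not excluded. Of the lists, the 5 genes of the carbon fixation list had a median of 1.09 in shaded against bottom with 2 calls, SBPASE and RCA. The plastid genome had 11 estimates above 0, against 51.2% of all tested probe sets, and 56 below, with a median of -0.38. Other lists split otherwise than between lit and top flank, with 7 of 7 chlorophyll synthesis genes and 7 of 11 expansins above 0. Among the 33, AT3G06470, of the fatty acid elongase family, had a difference of 2.33 and AFR one of -2.11 between shaded and bottom flank, against 0.58 and -1.08 between lit and top flank.

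Whether any difference depended on the flank was tested directly, as lit minus top less shaded minus bottom. No probe set passed (0 of 11371, 0%, limma), and 383 had an unadjusted p under 0.05 (3.37%), so none of the calls can be called particular to the slower growing flanks. The 255580_at probe set came nearest among the calls, with 482.5, 979.6 and 926 in the shaded and 859, 803 and 497.5 in the bottom flanks, which overlapped. The difference between the flank pairs was 1.65 (unadjusted p = 0.000688, adjusted p = 1). Among genes with 1 symbol the smallest p above 0 belonged to AT1G47380 (1.55), CML42, a calmodulin-like calcium sensor (1.57), and AT4G22960, and below 0 to BAT1 (-2.29), AT5G51280 (-1.99) and AT1G67850 (-1.42). AT1G47380 had 1193, 1050.1 and 1398 in the lit flanks and 628.5, 938 and 672 in the top flanks, but 817, 1149 and 1338 in the shaded and 1379, 2332 and 2224.5 in the bottom flanks, so the 2 pairs differed in opposite directions. RPN12a differed by -0.75 between lit and top and by -0.07 between shaded and bottom flank (unadjusted p = 0.00605 for the difference between them, adjusted p = 1).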

How the data were processed

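RNA from 15 pools of Brassica oleracea hypocotyl flanks was labelled with biotin and hybridised to 1 Affymetrix array each. The deposited values are intensities, the linear signal of each probe set, computed by GCOS 3.0 according to the submitters' processing notes; the sources used here do not give its settings. The mean of each array without its lowest and highest 2% was 500, so arrays had been scaled before deposit. Precision is limited by the number of arrays.

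The 1 value at or below 0 was set to 0.4, log2 was taken, the 64 control probe sets of the manufacturer were removed, and those with a mean log2 signal of at least 8.28, the median, were kept. A model with 5 group means was fitted in R 4.3.3 by the functions of limma 3.58.1 (lmFit, contrasts.fit, eBayes with an intensity trend, 10 residual degrees of freedom), with Benjamini-Hochberg adjustment within each comparison and a threshold of 0.05; the fit was tested on simulated data. Symbols came from the array's annotation table, in which 13513 probe sets had 1 symbol, 503 several and 8794 were not listed.

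The comparison, the gene lists and the genes named were chosen with earlier results of these data known. The rule named, among probe sets with 1 symbol, up to 15 genes past the threshold in each direction, then the 5 of smallest p that did not pass where fewer than 10 passed, up to 4 called or 3 of smallest p per list, and up to 3 each way in the other comparisons; for genes on more than 1 probe set the brightest was used. PRK, TPI, rbcL and the operon neighbours of rpl14 and psaI fall outside it and were chosen after their values were seen, as was the split of the plastid genome by complex. Lists were matched by whole symbol and are described by counts and medians, with no test of the list. Alternatives were other normalizations, filters, an offset, variance models, array weights, a fit of the 6 arrays alone, replicate blocks and leaving out each array. No nucleotide sequences of the probe sets or genes were used.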

Additional observations from a re-analysis of the deposited data

How the results depend on the processing

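Of the 10 probe sets called between lit and top flank, rpl14, AT4G26870 and 252927_at passed under all 17 alternatives, and each of the other 7 lost its call under at least 1; no estimate of a named gene that passed changed sign. The count was 21 with quantile normalization (12 higher, 9 lower), which let rpl16, SBPASE, AT3G23940, AT3G44190 and petL pass, and 4 without the intensity trend. The other filters, offset, centring, variance model, array weights and the fit of the 6 arrays gave 7 to 15. Leaving out 1 array gave 5 (without top flank replicate 2) to 13, with 6 without lit flank replicate 2. For shaded against bottom flank, 33 became 18 with no filter and 11 without the trend. Leaving out 1 array gave 9 (shaded flank replicate 3 or bottom flank replicate 2) to 32, with 18, 21 and 12 without shaded flank replicates 1 and 2 and bottom flank replicate 3. For the difference between the flank pairs the count was 0 to 1 on leaving out 1 array, the 1 without top flank replicate 1, and 0 in the other fits run, 4 of them with the filter, offset, variance model and array weights added after seeing the data. The causes of these shifts were not tested. The labels do not say that replicate numbers pair pools, and same-numbered lit and top arrays deviated together little (r 0.043, 0.02 and 0.0204), lit and shaded arrays somewhat more (0.125, 0.149 and 0.0377) and top and bottom arrays little (0.0603, 0.003 and -0.018). With the number as a replicate block 14 probe sets passed and with stimulation by number as a random replicate block 12, each including the 10. In the same blocked fits, added after seeing the data, 26 and 32 passed for shaded against bottom flank and 0 and 0 for the difference between the flank pairs. Dim probe sets, which include most matched auxin response genes, were not tested, and with 3 arrays a side smaller differences were not detectable.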
